A study of Mus musculus with 15 samples.

Results

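The comparison described here set CD4+ T cells from mice with acute graft-versus-host disease (aGvHD) against CD4+ T cells from untransplanted mice, using 6 of the 15 RNA-seq libraries in the series. The 3 day 7 libraries held wild type C57Bl6 donor CD4+ T cells, which had been given with donor bone marrow to lethally irradiated (8 Gy) Balb/C recipients and recovered from the spleen 7 days later. Splenocytes were stained with FAM-FLICA, a fluorescent label retained by cells with active caspase-1, and the CD4+ cells that did not retain the probe (Flica-negative) were sorted. The 3 control libraries held Flica-negative CD4+ T cells sorted at day 0 from the spleens of wild type C57Bl6 mice that had received neither irradiation nor cells. The remaining 9 libraries held CD8+ cells (control, Flica-negative and Flica-positive), of which the 3 control and 3 Flica-negative libraries are used below for the difference between lineages. No CD4+ Flica-positive library was analysed here.

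Several features of these groups limit what the comparison isolates. By the study's description the aGvHD cells were sorted from several mice, whereas a control sort may have come from a lone mouse, so the spread between day 7 libraries is one between pools and that between controls may be one between animals. The controls did not pass through an irradiated host of the same strain, and transplantation, irradiation of the host, alloantigen and the 7 days elapsed cannot be told apart. The sort was on CD3, CD4, CD8 and the probe, and the sources used here name no marker of donor origin in it. The genes measured were the 4567 genes listed in at least 1 of the 4 deposited comparison tables, each of which held only genes that had passed the study's own thresholds in these libraries (adjusted p below 0.05, with a log2 fold change beyond 2 in either direction). A gene without a row can therefore not be described, and the calls below are not independent of that selection.

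Acute graft-versus-host disease begins when donor T cells recognize host antigens in lymphoid organs, where CD4+ T cells leave their naive state, divide, and take on helper programs that include cytokine secretion, homing receptors and, in some cells, cytotoxic granules. Naive CD4+ T cells recirculate through lymph nodes by means of homing receptors such as CCR7 and are kept in that state by transcription factors such as TCF-1, LEF-1, BACH2 and FOXO1. Caspase-1 is an inflammatory protease that is stored as an inactive precursor and is activated on inflammasomes, so its transcript level and its activity are separate quantities.

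The 6 libraries held between 2143579 and 3184674 read counts on the listed genes and were scaled by size factors of 0.896 to 1.25. On log2 normalized counts, the largest distance between control libraries was 105.3 and between day 7 libraries 94.4, whereas the smallest distance between a control and a day 7 library was 196.2. These distances were taken over the tested genes, many of which had been listed because they differed between these same groups. A wider gap between groups than within them was therefore partly built in. As a check of the label, Zbtb7b (ThPOK, the factor that fixes the CD4 lineage) was at 4910, 6053 and 6056 in the controls and 4113, 4070 and 3378 on day 7. Cd8a, which encodes the CD8 alpha chain, was at 49.1, 42.5 and 117 in the controls and 4.41, 4.46 and 10.4 on day 7. In the CD8 controls the means of the same genes were 86.6 and 19748, so all 6 libraries matched their label in both genes, while Cd4 itself and the pan-T cell genes had no row.

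Transcripts of other cell types moved with the groups. All 13 measured B cell markers fell on day 7, and their summed normalized count went from between 10469 and 14000 in the controls to between 629 and 774, with Ms4a1, which encodes the B cell surface protein CD20, at 955, 887 and 957 in the controls and 0, 0 and 0 on day 7. All 8 measured MHC class II genes fell as well, from sums of 14286 to 19465 down to sums of 672 to 798. In the other direction, 12 of 14 neutrophil markers rose, from sums of 65.8 to 144 in the controls to 2670, 4712 and 7795 in the day 7 libraries, and S100a9, a calprotectin subunit, was at 31.3, 15.5 and 27.6 in the controls and 569.5, 1001 and 1731 on day 7. Dendritic cell markers rose in 2 of 4 tested genes (Itgax and Xcr1) and macrophage markers in 3 of 11 (33.0% of all tested genes were higher), with macrophage sums of 175 to 269 in the controls and 525 to 963 on day 7. The defining macrophage gene Adgre1 was at 8.93, 7.74 and 0 in the controls and 0, 4.46 and 0 on day 7. Of 7 erythroid genes the 4 globin genes fell (in a fit over all 15 libraries 1 of the 7 was called), with erythroid sums of 9131, 9147 and 1981 in the controls, where library 3 stood apart, and 1980, 718 and 375 on day 7. In sorted bulk samples a smaller number of such cells and less RNA per cell cannot be told apart, and the part of these cells in the results below was not tested.

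**Figure D1:**
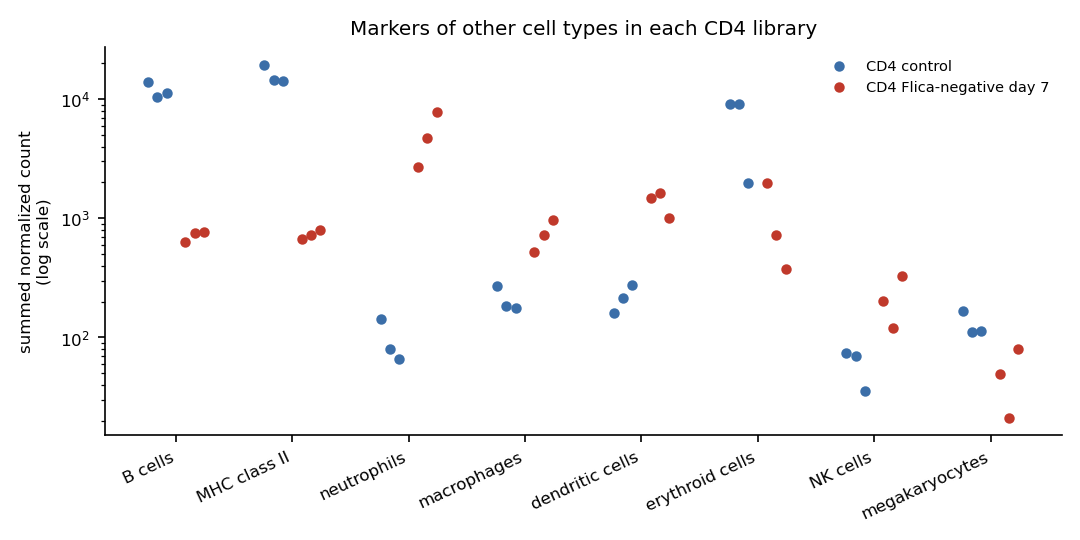
Summed normalized read count of each marker list (vertical axis, log scale) in each of the 6 CD4 libraries, with the cell types along the horizontal axis and 1 point per library, controls in blue and day 7 in red. B cell and MHC class II sums lie far lower in the day 7 libraries (629 to 774 for B cells against 10469 to 14000), and neutrophil sums far higher (2670 to 7795 against 65.8 to 144).

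Of 4358 genes with at least 10 counts over the 6 libraries, 2656 (60.9%) differed between day 7 and control at an adjusted p below 0.05 in edgeR's quasi-likelihood test, 1439 (33.0%) of them higher and 1217 (27.9%) lower on day 7. The groups did not overlap in 3031 genes (69.6%). Every count of list members below is to be read beside the shares of 33.0% higher and 27.9% lower. The median log2 fold change over all tested genes was 0.09, and it moved to -0.13 when the libraries were scaled by TMM in place of the authors' size factors, which changed the higher calls to 1314 of 2621. Among called genes, 535 rose and 381 fell by more than 4 on the log2 scale. In 470 genes no control library held more than 3 counts, and in 330 no day 7 library did. For such genes the folds given are lower bounds, computed against 3 counts per library. Of 2290 tested genes that the study's thresholds had left out of the deposited CD4 table, 733 were called.

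**Figure D2:**
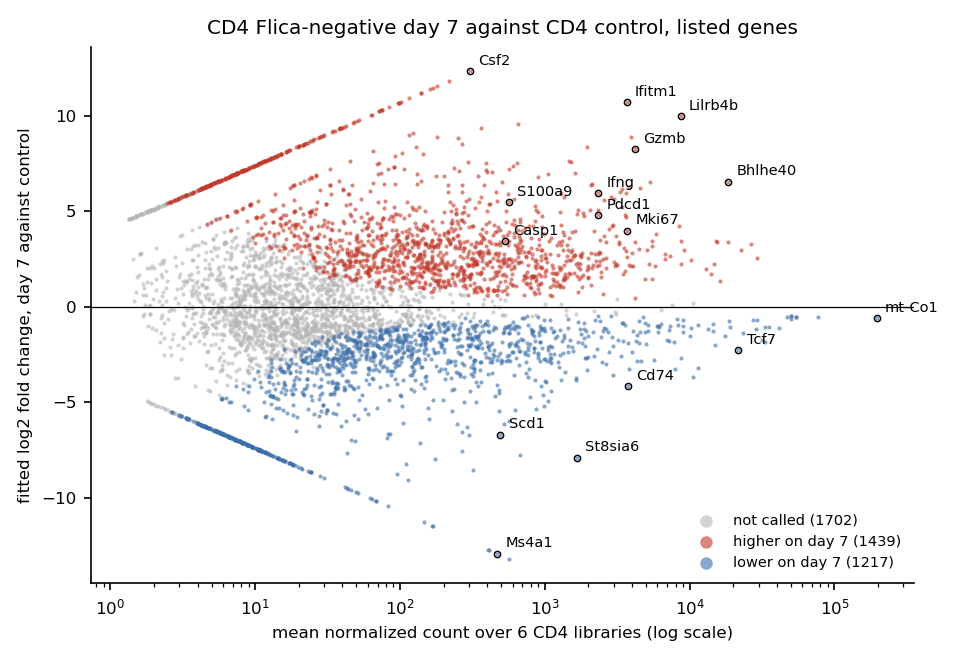
Fitted log2 fold change of each tested gene, CD4 Flica-negative day 7 over control (vertical axis), against its mean normalized read count over the 6 libraries (horizontal axis, log scale), with genes past an adjusted p of 0.05 in red where higher and blue where lower. Of 4358 genes, 1439 rose and 1217 fell, and the straight outer lines at the left are genes with no count in 1 group, whose fitted value depends on the prior count.

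Genes of mitosis rose together. Of 33 genes in this list 31 had a row, and all 31 were called higher on day 7 (33.0% of all tested genes were), with a median log2 fold change of 3.16 against 0.09 over all tested genes. Mki67, which encodes the proliferation antigen Ki-67, was at 409.8, 413 and 493 in the controls and 6632, 6251 and 7997 on day 7. Ccnb2, a cyclin that activates CDK1 at mitotic entry, was at 83.7, 49.3 and 51.6 in the controls and 1101, 1011 and 1436 on day 7. Each day 7 library lay far above every control library for both genes, which rose by 3.99 ± 0.18 (SE, adjusted p = 2.86e-08) and 4.27 ± 0.28 (adjusted p = 2.87e-07) on the log2 scale. The rises ran from 1.06 for Cenpa, the centromeric histone H3 variant, to 4.39 for Cdc25c, a phosphatase that activates CDK1. Between them lay Top2a, the topoisomerase that untangles sister chromatids (2.7), Kif11, a spindle motor (3.24), Aurkb, a kinase of the chromosomal passenger complex (3.40), and Birc5, survivin (4.08). Day 7 library 3 gave the highest value for most of these, among them Mki67, Ccnb2 and Top2a.

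Promoters of mitotic genes commonly carry CCAAT boxes, bound by NF-Y, together with a cell cycle homology region (CHR), the element read by the DREAM and MuvB complexes, so the promoters of the list were searched for both. Windows of 250 bases before to 50 after the RefSeq start (GRCm38.p6) were found for 25 of the 31 genes, and either strand was searched for CCAAT and for TTTGAA. The CCAAT box was present in 18 of these 25 genes (72.0%, against 41.1% of 27025 genes with a window), the CHR in 17 (68.0% against 20.2%), and 15 held both. The windows of Ccnb2 (chr9:70421505-70421804, minus strand) and Mki67 (chr7:135716330-135716629, minus strand) are shown because both genes carry several copies of each element, with the matches in capitals and the start 250 bases in.
Ccnb2: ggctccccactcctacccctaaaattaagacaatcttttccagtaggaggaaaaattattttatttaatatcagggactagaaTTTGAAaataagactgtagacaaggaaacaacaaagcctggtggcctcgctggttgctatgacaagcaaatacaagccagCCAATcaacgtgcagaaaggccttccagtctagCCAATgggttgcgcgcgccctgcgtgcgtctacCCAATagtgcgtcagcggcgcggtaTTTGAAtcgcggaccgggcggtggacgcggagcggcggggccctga
Mki67: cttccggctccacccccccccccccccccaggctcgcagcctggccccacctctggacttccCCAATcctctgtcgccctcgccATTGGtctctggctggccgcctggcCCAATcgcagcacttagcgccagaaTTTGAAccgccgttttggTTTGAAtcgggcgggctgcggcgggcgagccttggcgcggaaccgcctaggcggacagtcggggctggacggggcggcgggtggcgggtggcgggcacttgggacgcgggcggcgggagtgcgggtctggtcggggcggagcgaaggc
In Ccnb2 the 3 CCAAT boxes begin 87, 54 and 21 bases before the start and a CHR begins 4 bases after it. In Mki67 the 3 CCAAT boxes begin 188, 166 and 141 bases before the start, the second of them on the other strand, and both CHR elements lie downstream of them at 116 and 98. A match is a description of the sequence and was not tested for binding. With the window cut to the 150 bases before the start, 18 of the 25 genes still held a CCAAT box (27.7% of all genes), and 8 held a CHR (32.0% against 10.5%).

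DNA replication and repair genes showed the same direction with smaller changes. All 22 tested members of 34 were called higher (20 under TMM scaling), with a median log2 fold change of 2.13. Rrm2, the regulated subunit of ribonucleotide reductase, was at 157, 168 and 187 in the controls and 1008, 1118 and 1663 on day 7. Uhrf1, which recruits maintenance DNA methylation to new strands, was at 216, 208 and 202 in the controls and 1157, 1060 and 1602 on day 7. E2f2, an E2F activator, was at 930.2, 652 and 778 in the controls and 3342, 3213 and 2954 on day 7. None of these 3 overlapped between groups, and they rose by 2.88, 2.61 and 2.01 in log2 units (adjusted p = 1.59e-06, 1.62e-06 and 2.83e-06). The smallest rises were those of Prim1, the catalytic primase subunit (0.86), and Fen1, the flap endonuclease of Okazaki fragments (0.86). The calls lost under TMM scaling were those of Prim1 and of Ccne2, cyclin E2 (adjusted p = 0.0634 and 0.0784). The largest were those of Mcm10 (5.0 ± 0.75) and E2f7 (4.86 ± 0.88), both with few control counts. Of 17 genes with a promoter window, 4 (23.5%, against 1.80% of all genes) held an E2F site written as TTTCCCGC or TTTGGCGC, namely Cdc6, E2f2, E2f7 and Mcm5. Within the 150 bases before the start it was found in 2 of 17 (11.8% against 1.01%).

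Most measured genes of the T helper 1 (Th1) program rose. Of 17 genes, 13 were tested, 11 rose and 2 fell, with a median log2 fold change of 4.46. Ifng, the signature Th1 cytokine, was at 61.4, 115 and 45.4 in the controls and 4651, 4536 and 4616 on day 7. Tbx21, which encodes T-bet, the factor that specifies Th1 cells, was at 75.9, 143 and 136 in the controls and 4773, 3848 and 3312 on day 7. The 3 day 7 libraries agreed closely for Ifng, at 4601 ± 58.9 (mean ± SD, n = 3) against 74.0 ± 36.5 in the controls, a log2 fold change of 5.96 ± 0.32 (adjusted p = 7.45e-08). Tbx21 rose by 5.06 ± 0.28 (adjusted p = 8.35e-08). Both chains of the IL-12 receptor, through which dendritic cells drive Th1 differentiation, also rose, Il12rb2 from 72.6, 77.4 and 90.7 to 2637, 2343 and 2445 (4.94) and Il12rb1 by 3.93. The IL-18 receptor, which acts with IL-12 on interferon gamma output, rose in both chains: Il18rap was at 77.0, 121 and 138 in the controls and 10472, 9453 and 11854 on day 7, and Il18r1 at 1359, 1526 and 1517 in the controls and 18160, 15259 and 14810 on day 7. In neither chain did the groups overlap (log2 fold changes 6.56 and 3.45). The Th1 homing receptor Cxcr3 (2.98) and the inhibitory receptor Havcr2, TIM-3 (6.80), rose as well. Csf2, encoding GM-CSF, had no count in any control library and was at 499, 807 and 527 on day 7, which is at least 206-fold higher. The 2 members that fell were Lta, lymphotoxin alpha (-1.66), and Txk, a Tec family kinase (-1.25).

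**Figure D3:**
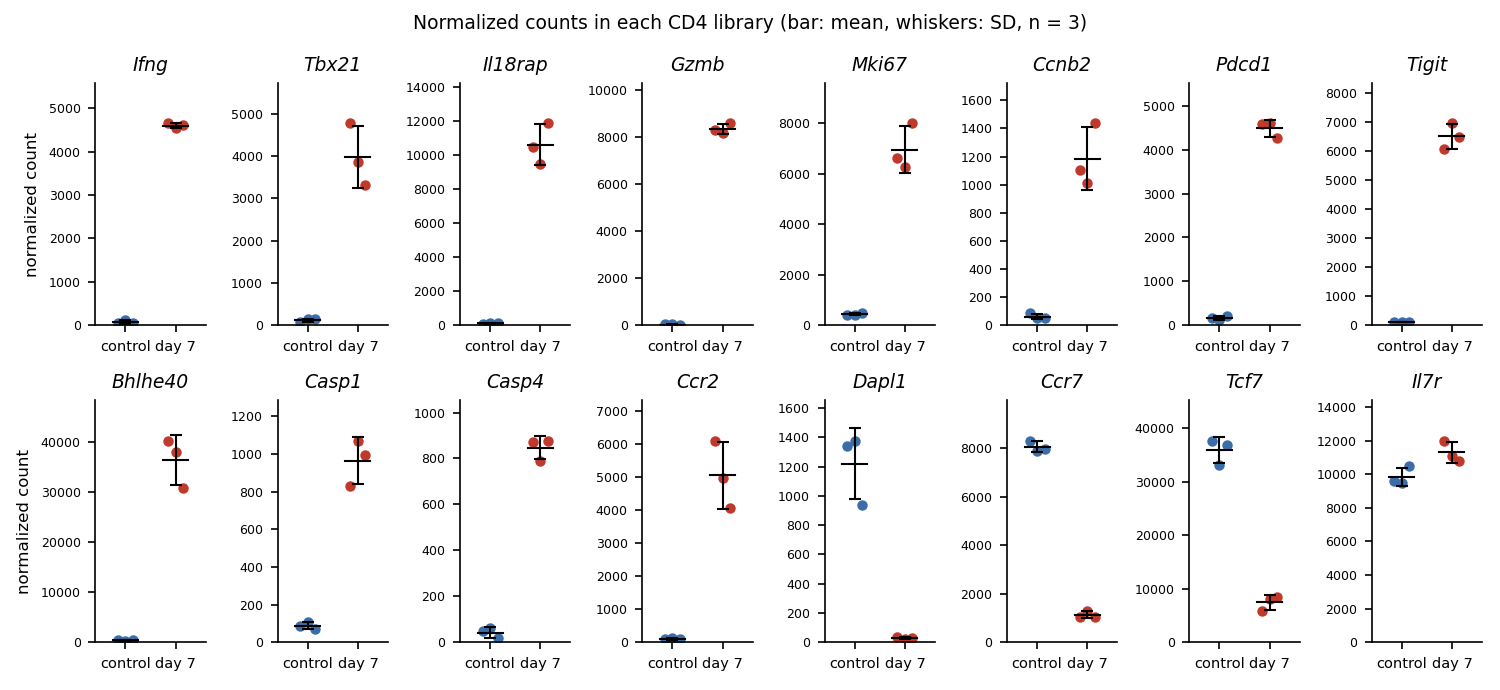
Normalized read count (vertical axis, linear from 0 and scaled per gene) of 16 genes in each CD4 library, with 1 point per library, controls in blue and day 7 Flica-negative libraries in red, a bar at each group's mean and whiskers of 1 SD (n = 3). Ifng, Tbx21, Gzmb and Casp1 are separated completely upward and Dapl1, Ccr7 and Tcf7 completely downward.

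Members of other helper programs also moved. Most of the 9 listed Th2 genes, among them Gata3, Il4 and Il5, had no row and cannot be described. Among 3 tested Th2 genes, Maf, a factor of the Il4 locus, and Il1rl1, the IL-33 receptor ST2, were at 567, 760.1 and 822 in the controls and 8298, 7079 and 7571 on day 7 and 30.1, 43.5 and 73.8 in the controls and 2591, 2816 and 2553 on day 7, rising by 3.42 and 5.74. Il13, a type 2 cytokine, had no control count and stood at only 41.4, 22.3 and 8.81 on day 7 (at least 8.14-fold higher). Of 6 tested Th17 genes 4 rose, led by Rora (3.70) and Ahr, the aryl hydrocarbon receptor (4.20), whereas the Th17 chemokine receptor Ccr6 fell from 118, 83.2 and 133 to 22.0, 2.23 and 4.0. Il17a was listed at 0 counts in every control library and at 23.8, 21.2 and 13.6 on day 7 (at least 6.57-fold higher). Rora and Ahr thus separated by wide margins, while Il17a reached levels between 13.6 and 23.8 normalized counts.

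Of 6 tested follicular helper (Tfh) genes 4 rose and 1 fell, beside 33.0% and 27.9% of all tested genes. The 4 that rose were Il21, Icos, Tox2 and Cebpa, the last in the same direction as the neutrophil markers, and Bcl6 had no row. Il21, the cytokine that supports germinal centre B cells, was at 23.4, 19.3 and 18.7 in the controls and 451, 547 and 715 on day 7, a rise of 4.80 with no overlap. Icos, the costimulator of follicular helper cells, was at 797, 894 and 1045 in the controls and 9045, 9874 and 11101 on day 7 (3.45). Cxcr5, the receptor for entry into follicles, was at 639.8, 589.9 and 596 in the controls and 257, 485 and 621 on day 7; the groups overlapped and the gene was not called (adjusted p = 0.227). Pou2af1, a B cell coactivator that is also expressed in Tfh cells, fell (-3.24), in the same direction as the B cell markers. In the regulatory T cell list, 5 of 7 tested genes rose, including Il10 from 31.3, 29.0 and 44.5 to 251, 339 and 339.6 (3.14), Il2ra, the high affinity IL-2 receptor chain (1.64), and Nrp1, neuropilin-1 (2.73). Izumo1r, the folate receptor FR4 of regulatory and anergic CD4+ cells, fell from 1537, 1455 and 1341 to 268, 483 and 443 (-1.86), and Foxp3 had no row.

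Transcription factors of effector fate rose in 12 of 14 tested genes (11 under TMM scaling), with a median log2 fold change of 2.74, and 1 fell. Bhlhe40, a factor needed for GM-CSF output in CD4+ cells, was at 419, 260.1 and 479 in the controls and 40333, 38038 and 30814 on day 7. Runx2 was at 52.5, 76.4 and 149 in the controls and 7256, 6942 and 6142 on day 7. No library of the 2 groups overlapped, and these genes rose by 6.56 ± 0.26 and 6.18 ± 0.35 (adjusted p = 1.40e-08 and 9.75e-08). Prdm1, which encodes Blimp-1 (2.81), Id2 (3.01), Batf (2.67), Nfil3 (2.98) and Irf4 (1.96) followed. Nr4a1, Nr4a2 and Nr4a3, orphan receptors induced by antigen receptor signalling, rose by 1.69, 3.28 and 1.44, and Nr4a1 was at 7150, 6802 and 5834 in the controls and 19889, 24163 and 19900 on day 7. Myc, which drives growth after activation, was the member that fell, from 1726, 1947 and 1630 to 922, 1155 and 1301 (-0.65 ± 0.19, adjusted p = 0.0107). Of 8 tested immediate early and feedback genes 7 rose, such as Fosb, an AP-1 subunit (3.41), Dusp5, a phosphatase of ERK (2.45), and Rgs1, a brake on chemokine receptor signalling (3.50), while Egr3 was at 1011, 946 and 1035 in the controls and 804, 645 and 754 on day 7 (adjusted p = 0.0522, or 0.0259 as a fall under TMM scaling).

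Genes of the cytotoxic program rose in these CD4+ cells. Of 21 genes 14 were tested and 13 rose, with a median log2 fold change of 3.45 (3.23 with genes at the count floor set to their bound). Gzmb, granzyme B, was at 32.4, 36.7 and 13.3 in the controls and 8309, 8169 and 8577 on day 7, the largest rise of the list at 8.26 ± 0.33 (adjusted p = 1.40e-08). Gzma, granzyme A, was at 50.2, 28.0 and 74.7 in the controls and 1427, 1818 and 1852 on day 7 (5.05). Prf1, the pore-forming perforin, started higher and changed less, at 511, 519 and 647 in the controls and 1156, 1381 and 1144 on day 7, a rise of 1.13 ± 0.19. Granzymes A and B therefore separated by far more than their own spread, and perforin by a smaller margin that still left no overlap. Nkg7, a granule membrane protein, was at 44.7, 105 and 141 in the controls and 7880, 8253 and 6509 on day 7 (6.27), and Fasl, the ligand of the death receptor Fas, at 220.0, 206 and 174 in the controls and 1585, 1237 and 998 on day 7 (2.67). Serpinb9, an inhibitor of granzyme B, and Serpinb6b of the same clade rose by 5.22 and 5.97. The remaining tested member, Gzmf, had counts in 1 day 7 library alone.

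Killer lectin receptors, most familiar from natural killer (NK) cells, rose in 9 of 13 tested genes (33.0% of all tested genes rose). Of the 13, 1 fell and 3 were not called. Klrc1, which encodes NKG2A, was at 23.4, 20.3 and 77.4 in the controls and 2638, 2842 and 2141 on day 7. Klrd1, its partner CD94, was at 207, 137 and 85.4 in the controls and 1874, 1688 and 1494 on day 7. Klrk1, NKG2D, was at 41.3, 65.8 and 50.7 in the controls and 829, 694 and 513 on day 7. Each was separated between groups, with rises of 5.95, 3.56 and 3.68, and the 3 genes are neighbours on chromosome 6 (Klrc1 chr6:129666015-129678973, Klrk1 chr6:129610323-129623864, Klrd1 chr6:129591782-129598775, GRCm38). Because the NKG2 genes are close copies, reads may be split between Klrc1, Klrc2 and Klrc3. Of 4 tested NK cell markers 1 rose, 2 fell and 1 was not called. Ncr1, which encodes NKp46, was at 23.4, 4.83 and 6.23 in the controls and 0, 0 and 0 on day 7, so the day 7 libraries held no count of this defining gene. Klrb1c, NK1.1, rose (2.73).

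Inhibitory receptors and related checkpoint genes rose in 9 of 10 tested members, with a median log2 fold change of 4.04. Tigit was at 94.9, 98.6 and 114 in the controls and 6093, 6967 and 6490 on day 7, a rise of 5.99 ± 0.19 (adjusted p = 3.70e-09). Pdcd1, which encodes PD-1, was at 157, 117 and 204 in the controls and 4594, 4599 and 4269 on day 7 (4.81 ± 0.23). Ctla4, the competitor of CD28 for its ligands, was at 877, 851 and 607 in the controls and 10481, 10824 and 11445 on day 7 (3.81). Lag3, a receptor for MHC class II, rose by 4.28, with day 7 values of 1888, 2419 and 3103. Lilrb4a, an inhibitory receptor of the leukocyte immunoglobulin-like family, rose by 8.36 and its near copy Lilrb4b by 9.99, so that their reads may be partly shared. All 9 tested costimulatory genes rose as well (8 under TMM scaling), among them Tnfrsf4, OX40 (2.72), Tnfrsf9, 4-1BB (1.82), and the early activation antigen Cd69 (2.14). Cd70, the ligand of CD27, had no control count and was at 96.1, 67.0 and 67.3 on day 7 (at least 25.8-fold higher). Cd40lg, the CD4+ helper signal to B cells and dendritic cells, changed least, at 2004, 1907 and 1997 in the controls and 3510, 3300 and 2527 on day 7, and its call was lost under TMM scaling (adjusted p = 0.118).

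**Figure D4:**
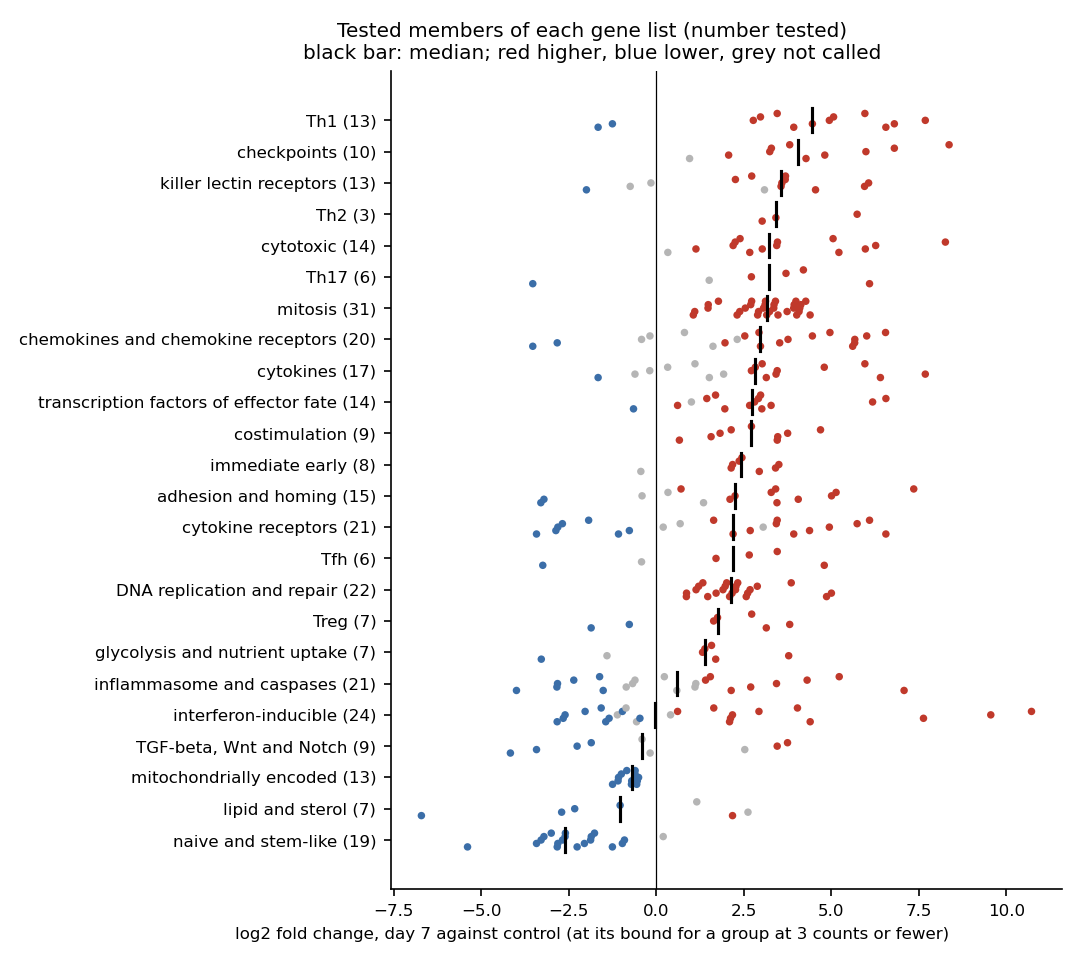
Log2 fold change, CD4 Flica-negative day 7 over control (horizontal axis, at its bound where a group lies at or under 3 counts), of every tested member of each gene list (along the vertical axis), with called genes coloured by direction, uncalled genes in grey and a black bar at each median. On this scale the medians of the mitosis (3.16), Th1 (4.46), checkpoint (4.04) and cytotoxic (3.23) lists lie above 0, and those of the naive list (-2.60) and the mitochondrially encoded genes (-0.70) below it.

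Genes of naive and stem-like T cells fell in 18 of 19 tested members (27.9% of all tested genes fell), with a median log2 fold change of -2.60. Ccr7, the receptor for lymph node chemokines, was at 8321, 7902 and 7989 in the controls and 1050, 1298 and 1060 on day 7. Tcf7, which encodes TCF-1, was at 37629, 33086 and 36887 in the controls and 5926, 8016 and 8511 on day 7. The highest day 7 library was well below the lowest control library for both, and the log2 fold changes were -2.83 ± 0.16 and -2.26 ± 0.16 (adjusted p = 9.10e-08 and 4.84e-07). Dapl1, a gene expressed in naive T cells, showed the largest fall of the list, from 1338, 1377 and 939 to 34.4, 21.2 and 30.4 (-5.39). Bach2, a repressor of effector genes (-3.0), Actn1 (-3.29), Lef1 (-1.86) and Foxo1 (-1.76) fell too, and the chromatin organizer Satb1 fell least (-0.91). Il7r, the IL-7 receptor chain that sustains naive and memory cells, was the exception, at 9612, 9457 and 10466 in the controls and 11998, 11104 and 10777 on day 7 with an adjusted p of 0.208. Its log2 fold change of 0.20 became -0.034 under TMM scaling.

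Homing molecules changed as well. Of 15 tested adhesion genes 10 rose and 2 fell, beside 33.0% and 27.9% of all tested genes. The rises were led by Itga1, the collagen-binding integrin chain of VLA-1, which was at 8.93, 4.83 and 8.01 in the controls and 1341, 1258 and 999 on day 7 (7.35). Itgb1, the shared beta 1 chain, was at 2382, 2285 and 3352 in the controls and 29431, 28845 and 26958 on day 7 (3.41), and the activation marker Cd44 rose by 2.25. Fut7 (4.05) and Gcnt1 (3.45), glycosyltransferases that modify cell surface glycans, both rose. Gpr15, a receptor for homing to the colon, was at 10.1, 10.6 and 0 in the controls and 242, 336 and 143 on day 7 (5.13). Itgb8, an activator of latent TGF-beta, fell from 83.7, 117 and 133 to 4.41, 21.2 and 8.81. Itgae, the CD103 chain, was at 52.5, 94.8 and 190.3 in the controls and 131, 165 and 131 on day 7 and was not called (adjusted p = 0.539), and Itgb3 was not called either (adjusted p = 0.118, or 0.0363 as a fall under TMM scaling). Thus the VLA-1 chains and both glycosyltransferases moved while CD103 gave overlapping groups.

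Of 20 tested chemokine and chemokine receptor genes 13 rose and 2 fell, beside 33.0% and 27.9% of all tested genes. Several of those that rose encode receptors for inflamed tissue. Cxcr6, the receptor for CXCL16, was at 134, 107 and 107 in the controls and 7057, 5743 and 4862 on day 7 (5.67 ± 0.22, adjusted p = 1.40e-08). Ccr2, the receptor for CCL2, was at 98.3, 122 and 89.8 in the controls and 6102, 4984 and 4060 on day 7 (5.61). For both, day 7 library 1 was the highest and library 3 the lowest, with no approach to the controls. Cx3cr1, a receptor of cytotoxic effector cells, rose by 4.96. Transcripts of inflammatory chemokines rose too, and Ccl3 was at 4.47, 0 and 25.8 in the controls and 1053, 921 and 1013 on day 7, Ccl4 rose by 6.01 and Ccl5 by 3.76. Ccl1, a ligand of CCR8, had no control count and was at 152, 172 and 131 on day 7 (at least 50.9-fold higher).

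Among the remaining cytokines, Csf1, which supports macrophages, was at 77.0, 36.7 and 33.8 in the controls and 4166, 4573 and 3618 on day 7, a rise of 6.4 ± 0.33. Lif (2.83), Tgfb3 (3.45) and Areg, the epidermal growth factor receptor ligand amphiregulin (3.42), rose, whereas Osm, oncostatin M, was at 373, 409 and 360.2 in the controls and 441, 555 and 436 on day 7 (adjusted p = 0.206). In all, 10 of 17 tested cytokines rose and 1 fell, beside 33.0% and 27.9% of all tested genes.

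Cytokine receptors went in both directions, with 11 of 21 tested genes higher and 7 lower, beside 33.0% and 27.9% of all tested genes. Il2rb, the signalling chain for IL-2 and IL-15, was at 2203, 2679 and 2891 in the controls and 27856, 28977 and 26859 on day 7 (3.43). Il6ra and Il6st, the 2 chains of the IL-6 receptor, fell from 9949, 9040 and 10701 to 1219, 1551 and 1459 (-2.81) and from 8073, 6360 and 8283 to 780.2, 1009 and 1323 (-2.87). The 2 chains of the interferon gamma receptor parted: Ifngr1, the ligand-binding chain, was at 1810, 2026 and 2097 in the controls and 12832, 12584 and 12692 on day 7. Ifngr2, the chain that recruits JAK2, was at 1188, 1217 and 896 in the controls and 135, 241 and 140.2 on day 7. Ifngr1 thus rose by 2.68 ± 0.14 and Ifngr2 fell by 2.68 ± 0.27 on the log2 scale, each without overlap (adjusted p = 7.12e-08 and 7.04e-06). Il4ra (-1.08), Il27ra (-0.77) and Tgfbr3 (-3.42) fell, and Tnfrsf1b, TNF receptor 2, rose (2.19).

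The 5 measured receptors of the IL-1 family in a stretch of chromosome 1 all rose. In order along GRCm38 these were Il1r2 (chr1:40074079-40125231), Il1r1 (chr1:40225080-40317257), Il1rl1 (chr1:40429570-40465415), Il18r1 (chr1:40465552-40500854) and Il18rap (chr1:40515362-40551705). Il1r1, the signalling receptor for IL-1, had no control count and was at 215, 159.6 and 233 on day 7 (at least 68.1-fold higher). Il1r2, the decoy receptor for the same ligand, was at 30.1, 5.80 and 0 in the controls and 174, 273 and 277 on day 7 (4.38). These 5 genes had higher values in every day 7 library than in any control library.

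Because the cells were sorted as lacking active caspase-1, the transcripts of inflammasome parts and inflammatory caspases are described in detail. Of 41 listed genes 21 were tested, of which 8 rose, 6 fell and 7 were not called, shares near those of all tested genes (33.0% higher and 27.9% lower), with a median log2 fold change of 0.59. Casp1 and Casp4, neighbours on chromosome 9 (chr9:5298517-5307265 and chr9:5308828-5336783), encode caspase-1 and its noncanonical relative caspase-11. Casp1 was at 89.3, 107 and 71.2 in the controls and 829.6, 1071 and 994 on day 7 (3.43 ± 0.25, adjusted p = 5.06e-07). Casp4 was at 48.0, 62.9 and 17.8 in the controls and 874, 788 and 878 on day 7 (4.31 ± 0.39, adjusted p = 2.57e-06). Both transcripts were therefore higher in every day 7 library although the sorted cells had not kept the probe. Among sensors, Nlrc4, the adaptor of NAIP inflammasomes, fell from 67.0, 72.5 and 70.3 to 2.65, 0 and 9.61 (-3.99), and Naip2, a sensor of bacterial secretion systems, rose (1.41). Nlrp1b, a sensor cleaved by anthrax lethal factor, fell from 46.9, 28.0 and 41.8 to 3.53, 0 and 12, but its adjusted p of 0.0345 reached 0.0978 with a library left out, and the call was lost without control library 1, control library 2 or day 7 library 1. Card10, a scaffold for BCL10, rose from 5.58, 15.5 and 0 to 272, 237 and 284 (5.22), and Card9 (-2.82) and Card6 (-1.52) fell. The substrates did not separate: Il1b was at 12.3, 34.8 and 24.9 in the controls and 11.5, 19.0 and 16.8 on day 7 and Il18 at 15.6, 0 and 6.23 in the controls and 30.0, 12.3 and 4.80 on day 7 (adjusted p = 0.519 and 0.493). Pycard, Gsdmd and Aim2 had no row.

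Interferon-inducible genes did not move as a block. Of 24 tested genes 11 rose (10 under TMM scaling) and 9 fell, beside 33.0% and 27.9% of all tested genes, with a median log2 fold change of -0.03. The interferon-induced transmembrane genes rose most. Ifitm1 was at 0, 12.6 and 0 in the controls and 6831, 9729 and 5494 on day 7 (10.72). Ifitm2 was at 0, 0 and 4.45 in the controls and 1128, 1634 and 1167 on day 7 (9.55). Ifitm3, a barrier to virus entry, was at 8.93, 10.6 and 23.1 in the controls and 2744, 3160 and 2813 on day 7 (7.63), and the 3 genes lie together on chromosome 7 (Ifitm2 chr7:140954837-140955987, Ifitm1 chr7:140967221-140969825 and Ifitm3 chr7:141009586-141010770). Of 4 tested guanylate-binding proteins Gbp3 (2.12), Gbp2b (4.03) and Gbp11 (2.09) rose and Gbp9 fell (-0.47, adjusted p = 0.025), a call that was lost without control library 1 or day 7 library 1 or 2 (adjusted p = 0.0537, 0.0809 and 0.0725). The oligoadenylate synthetase family split: Oas1a rose (1.64), whereas Oas2 (-2.03), Oasl1 (-2.83) and Oasl2 (-0.97) fell. Usp18, a feedback inhibitor of type I interferon signalling, fell from 391, 435 and 278 to 105, 199.8 and 103 (-1.44), Ifit1bl1 fell by 2.60, and Mx1 rose by 2.18.

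The PYHIN genes, a family that includes the DNA sensor AIM2, showed the split within 1 cluster on chromosome 1. Ifi204 (chr1:173747293-173766943) was at 4.47, 8.70 and 5.34 in the controls and 853, 965 and 745 on day 7, a rise of 7.08 ± 0.33 (adjusted p = 3.0e-08). Ifi213 (chr1:173566283-173599274) was at 3337, 3472 and 3481 in the controls and 541, 681 and 410.0 on day 7, a change of -2.66 ± 0.21 (adjusted p = 8.86e-07). Ifi208 (chr1:173673675-173698395) was at 3089, 3712 and 4100 in the controls and 1330, 1368 and 966 on day 7 (-1.57), and Ifi214 changed by -1.35. Ifi204 alone of these 4 rose, and its groups did not overlap. Members of this family are close copies, and the counting may have divided reads between them.

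An interferon-stimulated response element (ISRE), the DNA motif of the ISGF3 complex and of interferon regulatory factors, was sought in the same promoter windows as GAAANNGAAA on either strand. It was found in 11 of 17 list genes with a window (64.7%, against 3.99% of all genes), in 6 of 9 such genes that rose and in 4 of 6 that fell. Within the 150 bases before the start it was found in 9 of 17. The windows of Ifitm2 (chr7:140955912-140956211, minus strand), which rose, and Ifi213 (chr1:173599223-173599522, minus strand), which fell, are shown as a pair with the same element and opposite directions, the match in capitals.
Ifitm2: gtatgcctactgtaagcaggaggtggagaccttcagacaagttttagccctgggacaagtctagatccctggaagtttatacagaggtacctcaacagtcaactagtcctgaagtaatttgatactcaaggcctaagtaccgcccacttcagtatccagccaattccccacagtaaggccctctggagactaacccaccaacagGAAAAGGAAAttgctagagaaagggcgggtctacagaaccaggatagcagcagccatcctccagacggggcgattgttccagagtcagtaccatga
Ifi213: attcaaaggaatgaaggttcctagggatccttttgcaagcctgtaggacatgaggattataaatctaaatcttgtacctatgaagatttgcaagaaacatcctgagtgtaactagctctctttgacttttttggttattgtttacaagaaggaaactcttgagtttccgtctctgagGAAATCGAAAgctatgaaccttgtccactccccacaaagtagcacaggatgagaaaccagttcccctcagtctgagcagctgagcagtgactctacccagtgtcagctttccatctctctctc
The element begins 46 bases before the start in Ifitm2 and 73 before it in Ifi213.

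Metabolic genes were sparsely listed. Of 27 glycolysis and uptake genes 7 were tested and 5 rose (33.0% of all tested genes did), with Gapdh, glyceraldehyde-3-phosphate dehydrogenase, at 9280, 9659 and 8944 in the controls and 21601, 24426 and 23677 on day 7 (1.32). Hk2, the inducible hexokinase, was at 41.3, 54.2 and 81.8 in the controls and 816, 854 and 786 on day 7 (3.78). Pdk1, a kinase that inhibits pyruvate dehydrogenase, was at 7525, 6786 and 6374 in the controls and 649.8, 704 and 769.6 on day 7, a log2 fold change of -3.28 ± 0.16 (adjusted p = 5.15e-08). So the enzyme of the first glycolytic step and the inhibitor of pyruvate dehydrogenase moved in opposite directions. Of 7 tested lipid genes 4 fell (27.9% of all tested genes did), including Scd1, the stearoyl-CoA desaturase, from 1063, 842 and 1026 to 16.8, 0 and 9.61 (-6.71), while Abcb1a, a multidrug efflux pump, rose (2.18).

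All 13 mitochondrially encoded genes had a row and all 13 fell, with a median log2 fold change of -0.70. mt-Co1, cytochrome c oxidase subunit I, was at 215970, 219910 and 273660 in the controls and 139180, 169900 and 156290 on day 7 (-0.61 ± 0.13, adjusted p = 0.00188). mt-Nd2, a complex I subunit, was at 20200, 17808 and 23686 in the controls and 7996, 9708 and 8259 on day 7, the largest fall of the group (-1.25). mt-Cytb of complex III fell by 1.09. The falls were modest against those of naive genes, and against a 2-fold change 1 of the 13 was still called lower. The 10 called genes with the highest mean count were mitochondrial genes and sequences named Gm10925, Gm28661, Gm28437 and Gm29216, which fell by 0.53, 0.54, 0.50 and 0.64, together with the heat shock gene Hspa1b (-1.08). Gm28661 and mt-Co2 had near-identical counts (means of 64862 and 64745 in the controls), so the reads of such copies cannot be assigned to either.

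The largest rises among genes averaging 100 or more normalized counts were those of Csf2 and of Serpinb9b (375, 344 and 362 on day 7, at least 121-fold higher), Nccrp1 (at least 108-fold), Dpysl3 (at least 94.0-fold) and Il1r1, all without a control count. Lilrb4b was at 17.9, 13.5 and 19.6 in the controls and 17470, 19314 and 15328 on day 7, and Lgals3, galectin-3, at 21.2, 29.0 and 0 in the controls and 7787, 8024 and 7939 on day 7 (8.91). Miat, a long noncoding RNA, was at 340.3, 965 and 860.1 on day 7 (at least 243-fold higher). Ltb4r1, the leukotriene B4 receptor (at least 82.9-fold), Cd109 (at least 77.9-fold), Hrh4, a histamine receptor (at least 121-fold), and Galnt3 (at least 169-fold) also rose from the floor. Lcn2, lipocalin-2 of neutrophil granules, was at 185, 472 and 935 on day 7 (at least 179-fold higher), with the same order of libraries as S100a9 and as the summed neutrophil markers (2670, 4712 and 7795).

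The largest falls were mainly B cell genes. Ms4a1 was at least 333-fold lower, Fcer2a, CD23, at least 295-fold, Fcmr, the IgM Fc receptor, at least 288-fold, Blk at least 119.7-fold and Ebf1 at least 105-fold, all with no count in any day 7 library. Gprc5b, Spib, Blnk, Ly6d, Cd79a, Cr2, Fcrla and Chst3 were also among the 15, as was St8sia6. St8sia6, a sialyltransferase, was at 2916, 3025 and 4009 in the controls and 14.1, 22.3 and 6.41 on day 7 (-7.90 ± 0.37, adjusted p = 3.0e-08), so no library of either group came near the other.

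By likeness of pattern over all 15 libraries (Pearson r of log2 normalized counts, a description), the genes closest to Casp1 were Cdkn1a, the cell cycle inhibitor p21 (0.987), Serpina3f (0.985) and Serpina3g (0.984). Cdkn1a was at 49.1, 64.8 and 16.9 in the controls and 1650, 1931 and 1462 on day 7 (5.28). Closest to Ifng were Gna15 (0.994), Gng2 (0.992) and Dpysl3 (0.992), the first 2 being G protein subunits. These libraries share the step from control to day 7, which all of these genes follow.

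Set beside the CD8+ Flica-negative day 7 cells and their own controls, most changes had the same direction. The CD4 and CD8 libraries are separate, but they may have been sorted from splenocytes of the same mice, which the test of the difference leaves out of account. Over 4289 genes with both values the log2 fold changes had a Pearson r of 0.79 and a Spearman rho of 0.82, as a description across genes. Of the genes called in CD4, 2167 were called in the same direction in CD8 (81.6% of the CD4 calls and 71.0% of the 3054 CD8 calls), and 20 in the opposite direction. The 3054 CD8 calls covered most of the 4567 listed genes, and most of the deposited tables compared CD8 cells. A large overlap and a high correlation were therefore partly built in by the selection of genes. The difference between the CD4 and CD8 changes was called in 469 of 4530 tested genes (10.4%), 258 with a more positive and 211 with a more negative change in CD4, and in 285 genes under TMM scaling. Of these 469 genes, 242 differed at least 2-fold between CD4 and CD8 controls and 275 at least 2-fold on day 7, and 221 lay closer on day 7 than in the controls.

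**Figure D5:**
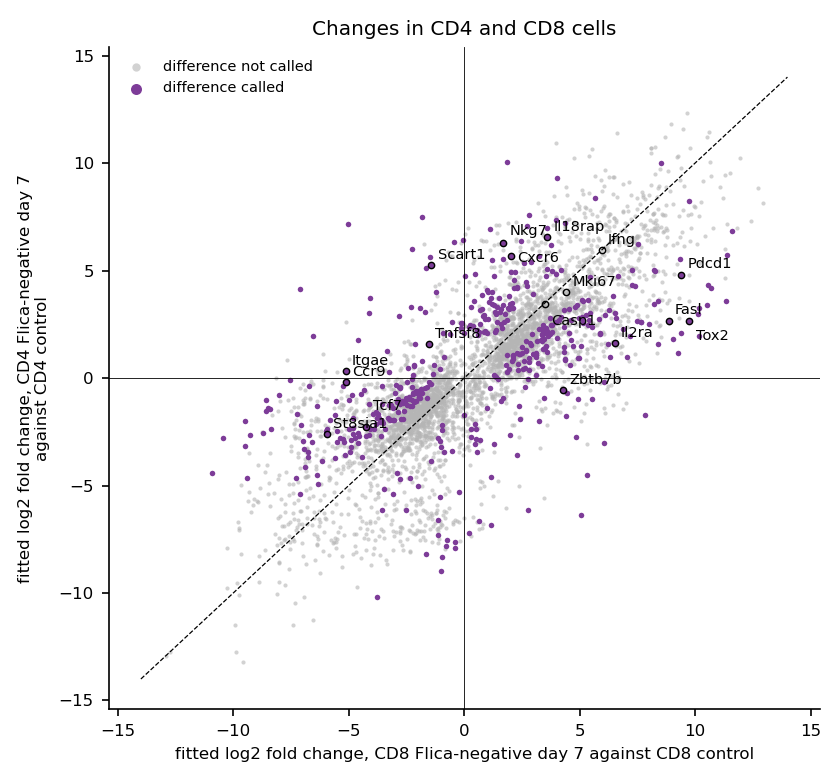
Fitted log2 fold change of Flica-negative day 7 over control in CD4 (vertical axis) against that in CD8 (horizontal axis), 1 point per gene, with genes whose changes differ between lineages (469 of 4530 tested) in purple and a dashed line where both changes are equal. Ifng, Casp1 and Mki67 lie near that line, Scart1 and Tnfsf8 lie above 0 for CD4 and below 0 for CD8, and Zbtb7b the reverse.

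Naive and stem-like genes fell less in CD4 than in CD8: 14 of the 19 differed between lineages (10.4% of all tested genes did), each with the more positive change in CD4. Ccr7 fell to a mean of 1136 in CD4 and from 7996 to 209.8 in CD8, a difference of log2 fold changes (CD4 minus CD8) of 2.42 ± 0.26 (adjusted p = 7.22e-06). Tcf7 went from 28613 to 1523 in CD8 (difference 1.97, adjusted p = 3.43e-06). Il7r, not called in CD4, fell by 1.35 in CD8 (difference 1.55, adjusted p = 1.13e-04). Lef1 (-1.86 in CD4 and -2.03 in CD8) and Foxo1 (-1.76 and -1.42) were members without a called difference.

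Cytotoxic genes differed in both directions, in 8 of 14 tested members (10.4% of all tested genes differed). Nkg7 rose by 6.27 in CD4 and by 1.70 in CD8, where the control mean was already 4535 and the day 7 mean 14711 (difference 4.57, adjusted p = 5.78e-07). Ctsw, cathepsin W, and Klrd1 gave the same picture, with differences of 2.20 and 3.14 (adjusted p = 1.16e-06 and 2.13e-05) and CD8 control means of 5871 and 1834. Fasl differed the other way: its CD8 mean went from 3.53 to 1741, so that the CD4 rise was the smaller (difference -6.19, adjusted p = 2.95e-06). Cxcr6 rose more in CD4 (5.67 against 2.04, difference adjusted p = 5.78e-07), as did Il18rap (6.56 against 3.58, adjusted p = 1.09e-06). For Ifng (5.96 in CD8) and Casp1 (3.48) the difference was not called (adjusted p = 1 and 1), with differences of -0.01 ± 0.35 and -0.05 ± 0.40.

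Of the 10 tested checkpoint genes, 5 differed between lineages, beside 10.4% of all tested genes. Pdcd1 had a CD8 control mean of 11.8 and a CD8 day 7 mean of 8126, beside 159 and 4488 in CD4 (difference -4.60 ± 0.40, adjusted p = 1.09e-06). Lag3 (difference -3.14, adjusted p = 3.99e-05) and Ctla4 (-2.62, adjusted p = 1.19e-05) followed it. Tigit rose by 5.99 and 7.38 with no called difference (adjusted p = 0.0568).

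Among the 20 genes called in opposite directions, 12 rose in CD4 and fell in CD8. Tnfsf8, the ligand of CD30, was at 798, 993 and 923 in the controls and 2485, 2612 and 2938 on day 7, a rise of 1.57, while its CD8 mean fell from 976 to 335 (difference 3.11, adjusted p = 1.16e-06). Scart1 and Scart2, scavenger receptors known from gamma delta T cells, rose to day 7 means of 542 and 184 in CD4 and fell in CD8, with differences of 6.65 and 5.17 (adjusted p = 3.31e-05 and 7.22e-06). Lcn4 followed (5.59, adjusted p = 3.31e-05). Zbtb7b was the reverse, with a CD4 fall of 0.56 and a CD8 rise from a mean of 86.6 to 1695 (difference -4.84, adjusted p = 5.78e-07), which left the CD4 day 7 mean of 3854 above it. The remaining genes with the largest called differences and a mean of at least 100 were Itgae (5.46, with CD8 means of 3562 before and 102 after), Rapgef4os2 (6.49, adjusted p = 0.0188, or 0.0505 without CD8 day 7 library 2) and Wdr95 (5.33) on the positive side. On the negative side were Tox2, Areg, Adgrg1, Map6 and Il1rl1, with fitted differences of -7.10, -7.06, -6.80, -6.21 and -5.65. Several of these had next to no counts in 1 of the 4 groups, so that the fitted value depends on the prior count: the CD8 control means were 0.294 for Tox2, 0 for Areg, 0 for Map6 and 0.294 for Il1rl1, and Wdr95 had no CD4 control count and Rapgef4os2 no CD8 day 7 count.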

How the data were processed

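RNA of FACS-sorted splenic T cells was sequenced from oligo-dT libraries on a NovaSeq instrument. The submitters' processing notes name STAR 2.7.1a, DESeq2 and GRCm38, and the counting tool and annotation are not given in the sources used here. The deposited tables hold raw read counts per gene and library, which the authors took through DESeq2, together with their baseMean, a signal column holding the mean of size-factor-normalized counts over the libraries. They also hold the authors' fold changes and p-values, and further tables their gene ontology terms, none of which was used. Each deposited table lists only genes past the study's thresholds, and total library depth is not analysed here. The union of the 4 tables gave 4567 genes.

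The size factors of the authors were recovered from the baseMean values and used to scale the counts. Genes with at least 10 counts over the 6 CD4 libraries were tested with edgeR 4.0.16 in R 4.3.3 (quasi-likelihood test, Benjamini-Hochberg adjustment, threshold 0.05), and the CD4 minus CD8 difference as an interaction over 12 libraries. Adjusted p-values in the text come from these fits, and fold changes are log2 with standard errors. The labels call the libraries biological replicates, and the p-values set the difference between groups against the spread between these libraries. That spread was estimated over both groups together. The test was tried on simulated counts, where it left many changed genes uncalled, so a gene that was not called may still have changed. Gene positions come from GENCODE M21 and promoter windows from RefSeq, which held 27025 genes. DESeq2 1.42.0, TMM scaling, other filters and left-out libraries were alternatives.

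The comparison, gene lists and rules for named genes were chosen with earlier results of these data known. Named genes were list members, the 15 largest rises and 15 largest falls and the 6 largest lineage differences in each direction, all averaging 100 or more normalized counts, the 10 called genes with the highest mean, and the 3 genes most like Casp1 and Ifng. Some genes that the rule names are not reported here.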

Additional observations from a re-analysis of the deposited data

Results flagged for a closer look

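The results set apart here are those in which the change from control to day 7 differed between CD4 and CD8 cells by the test of the difference itself, which called 469 of 4530 genes. All differences below are log2 fold changes of CD4 minus those of CD8, from edgeR's interaction term.

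Among naive genes the CD4 change was the more positive for Ccr7 (2.42), Tcf7 (1.97) and Il7r (1.55). Among genes of cytotoxic and tissue-homing cells it was the more positive for Nkg7 (4.57), Ctsw (2.20), Klrd1 (3.14), Cxcr6 (3.63) and Il18rap (2.98). Fasl went the other way (-6.19), as did the checkpoint genes Pdcd1 (-4.60), Lag3 (-3.14) and Ctla4 (-2.62).

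Of the genes called in opposite directions, the difference was 3.11 for Tnfsf8, 6.65 for Scart1, 5.17 for Scart2, 5.59 for Lcn4 and -4.84 for Zbtb7b. The remaining large differences were those of Itgae (5.46), Rapgef4os2 (6.49), Wdr95 (5.33), Tox2 (-7.10), Areg (-7.06), Adgrg1 (-6.80), Map6 (-6.21) and Il1rl1 (-5.65). The mean of at least 1 of the 4 groups was below 3 normalized counts for Rapgef4os2, Wdr95, Tox2, Areg, Adgrg1, Map6 and Il1rl1, so the size of their differences depends on the prior count. Groups of 3 libraries are too small for a test of single outlying libraries, so none was made.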

How the results depend on the processing

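Under 16 alternatives the number of genes called between CD4 day 7 and control cells stayed within 1.5 times the 2656 reported. It was 2621 with TMM scaling, 2726 with DESeq2, 2384 for genes with a mean of at least 10, 2219 among genes in at least 1 of the 3 CD8 tables, 2112 against a 2-fold change, 1930 at an adjusted p below 0.01, and 2321 to 2539 with a library left out. Higher calls made up 1314 of 2621 with TMM scaling. Whether the replicate numbers shared by the groups pair them is not known. The deviations of same-numbered libraries from their group means had correlations of -0.0231, -0.0262 and -0.0333. With 3 libraries per group such values cannot decide whether libraries shared a sort. With the replicate number as a block 2197 genes were called, 1233 higher and 964 lower.

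The number of genes whose CD4 and CD8 changes differed moved further, from 469 to 285 with TMM scaling (168 more positive and 117 more negative in CD4) and to 322 more negative ones with DESeq2 (701 in all), against 438 with the replicate block and 349 to 490 with a library left out. The cause was not tested. Of the 25 named differences, Rapgef4os2 alone lost its call under an alternative run (adjusted p = 0.0505 without CD8 day 7 library 2).

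Of 209 called genes named in the text, 181 kept their direction and call under every alternative and 0 reversed. A left-out library ended the call of Gbp9 (adjusted p up to 0.0809), of Nlrp1b (adjusted p = 0.0978 without control library 1) and of Ncr1 (adjusted p = 0.0712 without control library 1, and 0.0971 with the replicate block), TMM scaling those of Prim1, Ccne2 and Cd40lg, a fit over all 15 libraries those of Zbtb7b (adjusted p = 0.0611), Lta (0.0541), Cd40lg and Nlrp1b, and the test against a 2-fold change 26 calls. Among uncalled genes, the log2 fold change of Il7r was -0.0335 with TMM scaling, and that of Itgae ran from -0.0041 without control library 1 to 0.9454 without control library 3. Depth on the listed genes, 2143579 to 3184674 counts in the 6 CD4 libraries, limits genes near the floor of 3 counts per library.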

Other observations

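Genes of the TGF-beta, Wnt and Notch pathways were few among the listed genes, and 9 of 22 were tested. Of these, 2 rose and 4 fell (5 under TMM scaling), beside 33.0% and 27.9% of all tested genes, with a median log2 fold change of -0.41. Nkd1, an inhibitor of Wnt signalling, had no control count and was at 56.4, 34.6 and 28.8 on day 7, at least 13.4-fold higher. Hes1, a target of Notch, was at 33.5, 55.1 and 72.9 in the controls and 0, 1.12 and 7.21 on day 7, a change of -4.17 ± 1.03 with no overlap (adjusted p = 0.00495). Axin2, a feedback target of Wnt signalling that is commonly read together with Tcf7 and Lef1, was at 1575, 1947 and 2134 in the controls and 1422, 1488 and 1357 on day 7 with a log2 fold change of -0.41 (adjusted p = 0.062, or 0.0213 as a fall under TMM scaling), beside -2.26 for Tcf7 and -1.86 for Lef1.

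Granule genes of neutrophil precursors did not all follow the order of the other neutrophil markers on day 7. Mpo, myeloperoxidase, was at 208, 159.6 and 94.5 in the 3 day 7 libraries and Elane, neutrophil elastase, at 37.9, 35.7 and 44.0, whereas Ngp was at 671, 1108 and 2029 and Ltf, lactoferrin, at 276, 669.6 and 1125. The B cell marker Cd22 also stood apart from its list, at 1415, 1008 and 1043 in the controls and 372, 515 and 571 on day 7 (-1.25). The list's fitted median was -7.56, or -6.90 with genes at the count floor set to their bound.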
